A study of Mus musculus with 4 samples.

Results

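The haematopoietic heptad is a set of 7 transcription factors, Gata2, Runx1, Tal1, Lyl1, Lmo2, Erg and Fli1, which occupy many of the same enhancers in blood stem and progenitor cells. The genes were chosen by name, and 7 of 7 had values in every library, among 9244 genes with values. They were followed in Sin3B knockout (KO) and wild-type (WT) haematopoietic stem cells. All mice were of the C57BL/6 strain and aged 8 to 12 weeks, with 2 libraries per genotype (n = 2 throughout). Sin3B is a scaffold protein of histone deacetylase complexes that repress transcription. Cells of both genotypes were sorted by the same gate (LSK CD34- FLk2-) and profiled as polyA RNA by SMARTER, a low-input library method. The labels do not give the knockout allele, the promoter of any Cre, or whether libraries of a genotype came from separate animals, so the errors below describe the spread between libraries, which may be technical.

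Each factor recognises its own short DNA motif or is brought in by a partner. Gata2 binds GATA motifs through zinc fingers, Runx1 binds DNA as a dimer with Cbfb, and Erg and Fli1 are ETS family factors. Tal1 and Lyl1 are related basic helix-loop-helix proteins that bind E-boxes as dimers with E proteins such as Tcf3 and Tcf12. Lmo2 does not bind DNA itself; its LIM domains bridge the helix-loop-helix dimer, Ldb1 and GATA factors. The factors are known to bind regulatory elements of one another's genes, and several are needed for the formation or upkeep of blood stem cells in the mouse.

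Values are read counts divided by a size factor per library, as deposited. Depth was 12637960 and 13700630 reads in the listed genes of Sin3B KO 1 and 2, against 9950979 and 11754067 in WT 1 and 2, where the smallest step between values is taken as 1 read. The targeted gene, Sin3b, stood at 755 and 647 in the Sin3B KO libraries and at 1522 and 1825 in the WT libraries, so transcripts remained in the KO. Its log2 fold change was -1.25 by limma (Benjamini-Hochberg adjusted p = 0.548), and the authors' deposited table gives -1.03 with an adjusted p of 0.00249. In this limma fit 0.548 was the lowest Benjamini-Hochberg adjusted p of any gene. Several genes below share it, so it does not tell them apart. Of 12 stem cell markers, 12 had values, among them Procr (2490.3 and 3392 in the KO, 2050.0 and 2964 in WT), Slamf1 (893 and 1191, against 678 and 971) and Mecom (2338 and 2501, against 2405 and 1967). Groups did not overlap for 3 of the 12: Ly6a, a marker of the gate, was higher in the KO (2699 and 2812, against 2343 and 2628), while Hlf (5353 and 7054, against 8877 and 7805) and Fgd5 (257 and 643, against 710.3 and 1240.3) were lower, and 0 passed the test. Over all genes 24.7% were higher and 19.4% lower without overlap. Summed over these markers, the signal was 78755 and 92048 in Sin3B KO libraries and 86859 and 82516 in WT libraries.

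All 7 factors had a log2 fold change below 0 (Sin3B KO over WT), and none passed the test over all genes. Lmo2 and Runx1 had the widest gaps, at 1.57-fold and 1.51-fold lower in the KO, Tal1 was 1.27-fold lower, and Erg and Fli1 differed least. The median of the 7 was -0.23, beside 0.03 over all 9244 genes. Among all genes 46.6% had a log2 fold change below 0. Under an adjusted p of 0.05 limma called 0 of the 7 factors and 0 of 9244 genes (0%). At an unadjusted p under 0.05 it had 2 of the 7, Lmo2 and Runx1, and 824 of all genes (8.91%). Groups did not overlap, with the KO lower, for 3 factors, Lmo2, Runx1 and Tal1, and for 19.4% of all genes. Without WT replicate 1 the median was -0.40 with 5 of 7 below 0, and without Sin3B KO replicate 1 it was -0.31, again with 5 of 7. Together the 7 factors took 0.166% and 0.18% of the signal of listed genes in Sin3B KO 1 and 2, against 0.222% in each WT library. As these are bulk samples, fewer cells of a type and less RNA per cell cannot be told apart.

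**Figure D1:**
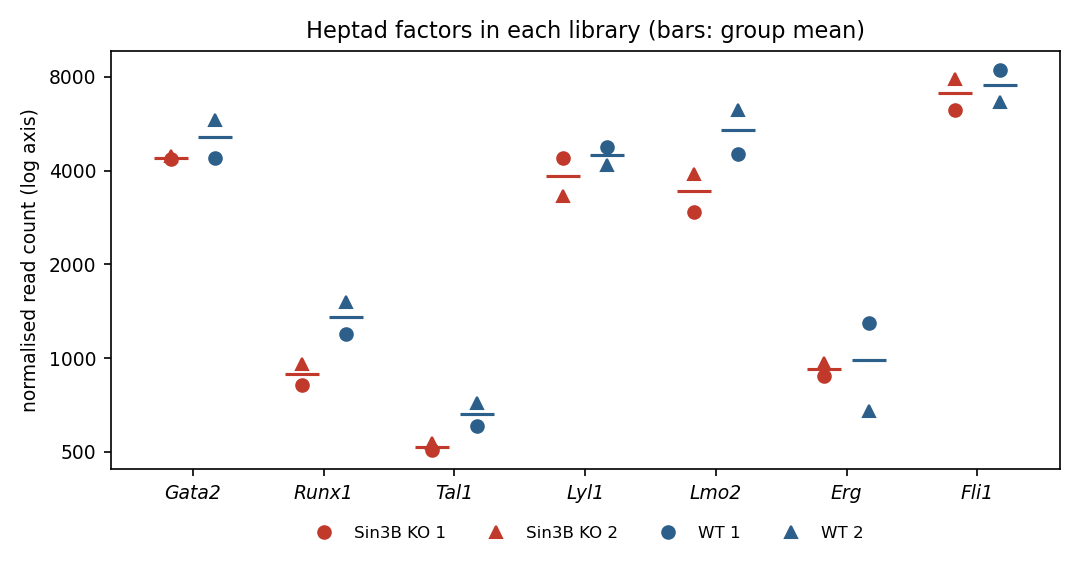
Normalised read count of each heptad factor (log axis) in the 2 Sin3B KO libraries (red) and the 2 WT libraries (blue), with group means as bars. Both red points lie below both blue points for Lmo2, Runx1 and Tal1; for the other factors the groups overlap.

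Promoters of Runx1 and Tal1, whose groups did not overlap, are shown with that of Lyl1, the closest relative of Tal1, because the heptad is known for binding its own genes. RefSeq promoters (GRCm38.p6) were matched for 5 of the 7 factors, Gata2, Runx1, Tal1, Lyl1 and Erg, with 10 start sites in all. Each sequence is the 250 bases before a start, 5′ to 3′ along the gene, and capitals mark a match on either strand to the ETS motif GGAAGT, the GATA motif AGATAA, the E-box CAGNTG or the RUNX motif TGTGGT.
Runx1 distal start, chr16:92826075-92826324 (-): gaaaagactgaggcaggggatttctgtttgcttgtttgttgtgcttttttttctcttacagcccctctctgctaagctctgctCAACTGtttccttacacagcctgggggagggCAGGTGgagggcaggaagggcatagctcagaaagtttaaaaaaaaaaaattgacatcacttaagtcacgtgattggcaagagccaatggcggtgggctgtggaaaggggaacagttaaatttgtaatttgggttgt
Runx1 proximal start, chr16:92697330-92697579 (-): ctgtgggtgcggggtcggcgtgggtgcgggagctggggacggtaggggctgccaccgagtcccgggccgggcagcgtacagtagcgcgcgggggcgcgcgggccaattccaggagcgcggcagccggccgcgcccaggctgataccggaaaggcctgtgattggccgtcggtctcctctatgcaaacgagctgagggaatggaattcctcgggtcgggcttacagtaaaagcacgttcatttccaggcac
Tal1 first start, chr4:115056176-115056425 (+): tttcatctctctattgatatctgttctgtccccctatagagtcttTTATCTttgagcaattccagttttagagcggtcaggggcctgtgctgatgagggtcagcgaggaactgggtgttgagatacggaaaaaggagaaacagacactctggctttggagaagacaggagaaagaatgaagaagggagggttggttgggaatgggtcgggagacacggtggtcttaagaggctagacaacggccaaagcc
Tal1 second start, chr4:115057561-115057810 (+): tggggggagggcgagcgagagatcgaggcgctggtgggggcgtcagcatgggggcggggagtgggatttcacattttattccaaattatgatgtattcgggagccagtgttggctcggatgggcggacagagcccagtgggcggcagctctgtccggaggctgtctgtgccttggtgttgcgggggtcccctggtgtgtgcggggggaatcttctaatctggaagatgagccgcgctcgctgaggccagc
Lyl1 start, chr8:84701207-84701456 (+): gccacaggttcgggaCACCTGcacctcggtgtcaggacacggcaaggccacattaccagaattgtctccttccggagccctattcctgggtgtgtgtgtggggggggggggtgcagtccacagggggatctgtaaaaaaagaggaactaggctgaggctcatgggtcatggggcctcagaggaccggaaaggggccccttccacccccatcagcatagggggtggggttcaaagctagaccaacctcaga
The distal Runx1 promoter held 2 E-boxes and the proximal one none of the 4 motifs, the first Tal1 promoter held 1 GATA motif and the second none of the 4, and the Lyl1 promoter held 1 E-box. No matches overlapped in these windows. Over the 10 promoters, the E-box was in 3 (30%), against 44.8% of 32851 promoters of all genes, and the GATA motif in 2 (20%), against 9.99%. The letters searched for ETS and RUNX were in 0 of the 10, against 19.7% and 14% of all promoters. Only the exact letters given above were searched, so other forms of the 4 motifs, E-boxes included, were not counted. A count of 0 therefore does not show that a promoter lacks such motifs. A match is a description of letters in this window and not a site, and enhancers lie outside it. The deposited counts are per gene, so reads from the alternative starts of Runx1 cannot be separated.

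Runx1, the DNA-binding subunit of core binding factor, was read at 823 and 960.4 in the Sin3B KO libraries, against 1196 and 1515 in the WT libraries. The higher KO library thus lay below the lower WT library. Its means were 892 ± 97.4 in the KO and 1356 ± 226 in WT (SD, n = 2 each), a log2 fold change of -0.60 (95% confidence interval -1.11 to -0.08), ranked 435 of 9244 genes by p (limma, Benjamini-Hochberg adjusted p = 0.548). Its paralog Runx3, which acts in lymphoid cells among others, was at 494 and 329 in the KO, against 595 and 779 in WT. Runx2, best known from bone formation, was at 658 and 908 in the KO, against 1602 and 1009.9 in WT, and was picked out after its values were seen. Both KO values lay below both WT values for these 3 RUNX genes, as for 19.4% of all genes. Cbfb, the partner that stabilises RUNX proteins on DNA, overlapped between genotypes, at 468 and 879 in the KO and 768 and 1026 in WT; it too was chosen after its values were seen.

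Lmo2, the bridging LIM protein, had 2952 and 3916 normalised reads in Sin3B KO cells, against 4510.4 and 6289 in WT cells. No KO value reached the lower WT value. The means were 3434 ± 682 in the KO and 5399 ± 1257 in WT (SD, n = 2 each), a log2 fold change of -0.65 (95% confidence interval -1.18 to -0.11; limma, Benjamini-Hochberg adjusted p = 0.548), at rank 368 by p. Of all genes, 6.45% had a log2 fold change at or below that of Lmo2. The library gaps within a genotype were 1.33-fold in the KO and 1.39-fold in WT, wider than the medians over all genes of 1.18-fold and 1.25-fold. Ldb1, the adaptor that binds Lmo2, was at 910.2 and 902 in the KO, against 959 and 1839 in WT, and was named after its values were seen. Its groups did not overlap, but 1 of the WT libraries stood close to the KO values.

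Tal1, which is needed for the first blood stem cells of the mouse embryo, was at 507 and 532 in Sin3B KO libraries, against 608 and 719 in WT libraries. The KO values lay below the WT values by a small margin. The log2 fold change was -0.35 (95% confidence interval -0.90 to 0.20; limma, Benjamini-Hochberg adjusted p = 0.623), an interval that holds both higher and lower levels in the KO. With 527 reads of Tal1 in the library that had fewest of them, Sin3B KO 1, counting error alone was 4.36% (relative standard error). The gap between the KO libraries was close to that, at 1.05-fold, and the gap between the WT libraries was larger, at 1.18-fold. The 4.36% covers counting error only, as amplified reads are not independent molecules. Lyl1, its relative, was at 4395 and 3319 in the KO, against 4774 and 4183 in WT. These groups overlapped, as Sin3B KO 1 exceeded WT 2, and the log2 fold change was -0.23 (95% confidence interval -0.70 to 0.25; limma, Benjamini-Hochberg adjusted p = 0.699). Without Sin3B KO replicate 1 the log2 fold change of Lyl1 was -0.43, and without Sin3B KO replicate 2 it was -0.02. Of the E proteins with which both dimerise, Tcf12 was at 543 and 657 in the KO and 822 and 1199.8 in WT, with no overlap (log2 fold change -0.73; limma, Benjamini-Hochberg adjusted p = 0.548). The E proteins Tcf4 (1918 and 2377 in the KO, 2825 and 2193 in WT) and Tcf3 (414 and 181, against 379 and 636) overlapped between genotypes. Both were added after their values were seen. Id2, an inhibitor that sequesters E proteins and the only Id gene of 4 with values here, was at 599 and 555 in the KO and at 722 and 315 in WT.

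Gata2, the GATA factor of stem and early progenitor cells, was at 4359 and 4447 in the Sin3B KO libraries, against 4408 and 5818 in the WT libraries. The KO libraries and WT 1 were level, and only WT 2 stood above them. The log2 fold change was -0.20 (95% confidence interval -0.66 to 0.26; limma, Benjamini-Hochberg adjusted p = 0.719), and -0.00 without WT replicate 2. Gata1, which takes over from Gata2 at shared sites in erythroid and megakaryocytic cells, was higher in both KO libraries, at 3144 and 1842 in the KO and 1004 and 1063 in WT. Its log2 fold change was 1.22 (limma, Benjamini-Hochberg adjusted p = 0.548). For Gata1 the authors' deposited table had a log2 fold change of 0.99 and an adjusted p of 0.00705. Per kilobase of exon the ratio of Gata2 to Gata1 was 0.626 and 1.09 in Sin3B KO 1 and 2, against 1.98 and 2.47 in WT 1 and 2. Gata2 therefore exceeded Gata1 in 3 of the 4 libraries, and the ratio was lower in both KO libraries than in either WT library. Over the 8 erythroid markers with values, of 10 listed, the summed signal was 21548 and 8005 in the KO and 9009 and 6024 in WT. These sums overlapped between genotypes. All 8 had a log2 fold change above 0 (median 0.92), beside 46.6% of all genes below 0, and 0 passed. KO values lay above WT values without overlap for 3 of the 8, beside 24.7% of all genes. Gata1 is itself one of these markers, and the part of erythroid transcripts in the ratio was not tested.

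Erg and Fli1 are ETS factors with closely related DNA-binding domains. Fli1 was at 6268 and 7908 in Sin3B KO libraries, against 8436 and 6635 in WT libraries. Its groups were interleaved, with a log2 fold change of -0.09 (95% confidence interval -0.57 to 0.39; limma, Benjamini-Hochberg adjusted p = 0.893). Erg was at 879 and 967 in the KO, against 1296 and 676 in WT, so that both KO values lay between the WT values. The log2 fold change was -0.02 (95% confidence interval -0.73 to 0.69; limma, Benjamini-Hochberg adjusted p = 0.984). The WT libraries differed by 1.92-fold for Erg, a gap larger than that of 92.0% of genes, and the KO libraries by 1.10-fold. Without WT replicate 1 the log2 fold change of Erg was 0.45 and without WT replicate 2 it was -0.49, while Fli1 gave 0.09 and -0.26. The interval of either gene holds differences of 1.31-fold or more in the upward direction, so equal expression was not shown.

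**Figure D2:**
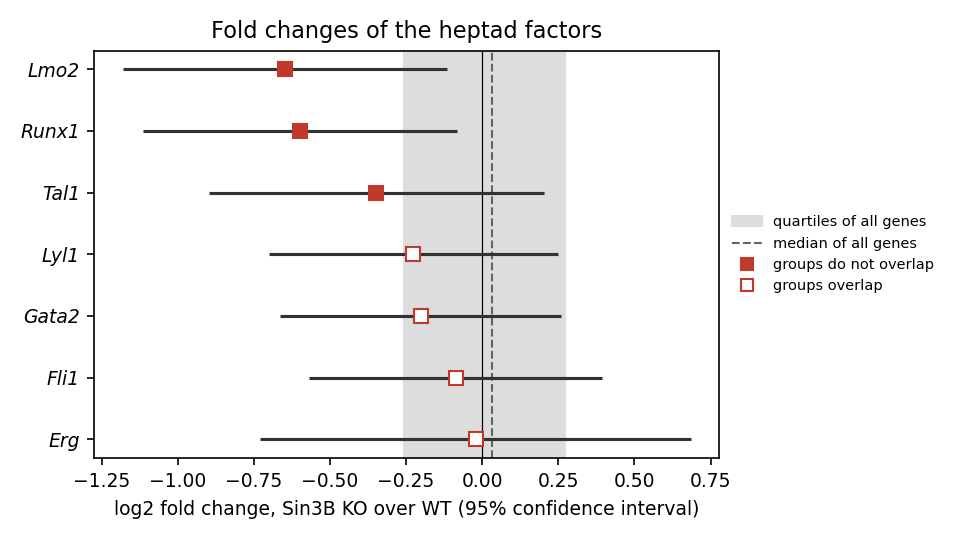
Log2 fold change of each heptad factor (Sin3B KO over WT) with its 95% confidence interval from limma, beside the median (dashed) and quartiles (grey, -0.26 to 0.27) of all genes. Filled squares mark Lmo2, Runx1 and Tal1, whose groups do not overlap, and the intervals of Lmo2 and Runx1 lie below 0 before adjustment over all genes.

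The authors' deposited table gave the same signs. It listed Lmo2 with a log2 fold change of -0.54 (standard error 0.20) and an adjusted p of 0.296, and Runx1 with -0.49 (0.21) and 0.423. For the other 5 factors the authors' deposited table had log2 fold changes between -0.27 and -0.07 and adjusted p-values between 0.73 and 0.952. In it 0 of the 7 factors and 31 of 9796 genes (0.316%) were under an adjusted p of 0.05.

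Levels of the factors were compared with one another only per kilobase of exon, on the scale of normalised reads per kilobase. Lyl1, Fli1 and Lmo2 formed the top of the order. Lyl1 averaged 2143 ± 423 in the KO and 2488 ± 232 in WT, Fli1 2033 ± 333 and 2162 ± 365, and Lmo2 1585 ± 315 and 2493 ± 580.5 (SD, n = 2 per genotype). Their ranges over the 4 libraries overlapped, so the order among them was not resolved. Gata2 followed at 816 ± 11.6 in the KO and 947 ± 185 in WT, below every library of the first 3 and above every library of Erg (266 ± 17.8 and 284 ± 127). Tal1 came next (119 ± 4.18 and 151 ± 18.0), and its range met that of Runx1 (74.1 ± 8.10 and 113 ± 18.8) but not that of Erg. Against the 9000 genes with an exon length, Lyl1, Fli1 and Lmo2 were at the percentiles 98.3, 98.0 and 97.9, Gata2 at 92.1, Erg at 68.2, Tal1 at 45.5 and Runx1 at 33.7. Genes with a mean count below 120.2 are not listed, so these are places among listed genes and not among all genes of the mouse. The place of Runx1 rests on its exon length of 12.0 kb over all transcripts; by its longest transcript of 5.86 kb it stood above Tal1 in 4 of 4 libraries and its range met that of Erg.

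**Figure D3:**
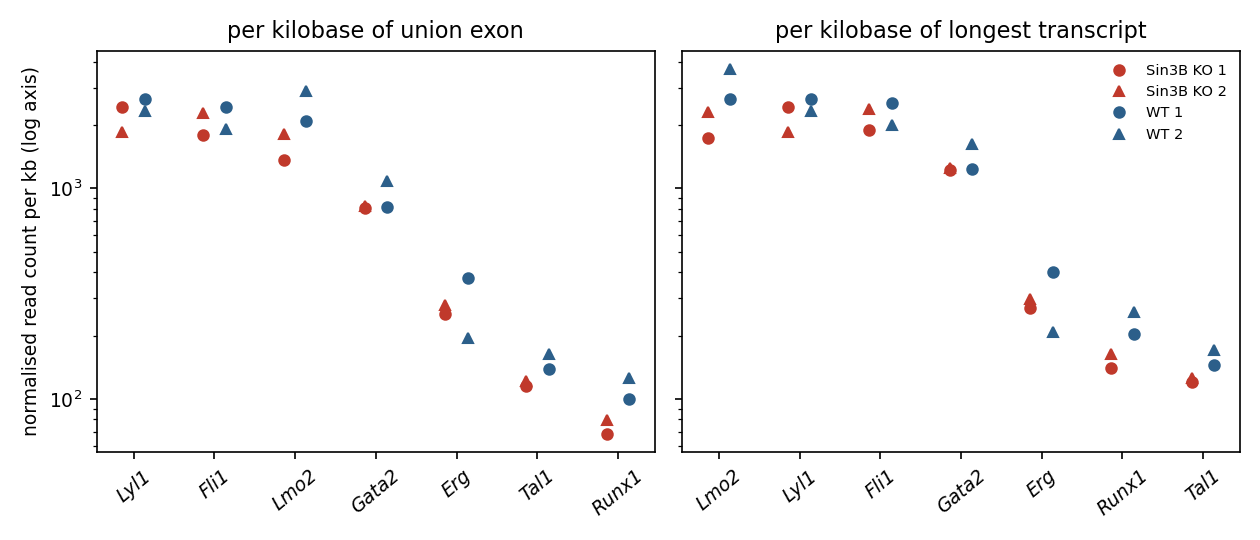
Normalised read count per kilobase (log axis) of the 7 factors in each library, by the length of all exons (left) and of the longest transcript (right), in falling order of the mean. Lyl1, Fli1 and Lmo2 lie together at the top in both panels, and Runx1 moves from the last place at left to the place above Tal1 at right.

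Within a library, paralogs kept an unequal balance in both genotypes. Fli1 was the dominant ETS member of the set, at 7.09 and 8.13 times Erg per kilobase in the KO and 6.47 and 9.77 times in WT. Lyl1 exceeded Tal1 by 21.1 and 15.2 times in the KO and by 19.1 and 14.2 times in WT. Both balances overlapped between genotypes, whereas that of Gata2 to Gata1 did not.

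**Figure D4:**
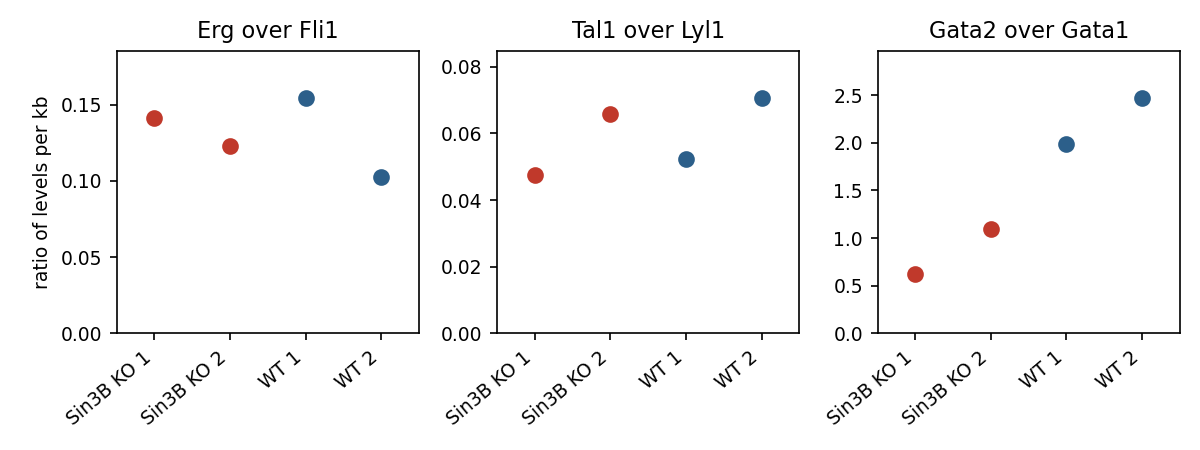
Ratio of levels per kilobase of exon within each library, for Erg over Fli1, Tal1 over Lyl1 and Gata2 over Gata1, with Sin3B KO libraries in red and WT libraries in blue. The Gata2 to Gata1 ratio is 0.626 and 1.09 in the KO and 1.98 and 2.47 in WT, while the other ratios overlap.

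The protein partners of the heptad showed both directions. Of 14 listed partners 11 had values, 7 of them with a log2 fold change below 0 and 4 above, with a median of -0.22, and 0 passed. Both KO values were below both WT values for 3 (19.4% of all genes) and above for 2 (24.7% of all genes). Cbfa2t2, a corepressor of the ETO family, was at 3868 and 4272 in the KO, against 2626 and 3290 in WT (log2 fold change 0.47; limma, Benjamini-Hochberg adjusted p = 0.548). Cbfa2t3, of the same family, which joins Tal1 complexes, was at 4730 and 5193 in the KO, against 6465 and 5261 in WT (log2 fold change -0.23; limma, Benjamini-Hochberg adjusted p = 0.662), and -0.09 when WT replicate 1 was left out or -0.38 when WT replicate 2 was. Leaving out WT replicate 1 put the median of the partners at -0.04, and leaving out Sin3B KO replicate 1 at -0.07.

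Paralogs from the GATA, RUNX, LMO and ETS families had values for 14 of 16 genes, 8 below 0 and 6 above, with a median of -0.215 (-0.08 without Sin3B KO replicate 1 and -0.14 without WT replicate 2). Of these 0 passed, 5 had KO values below WT values without overlap and 1, Gata1, above (19.4% and 24.7% of all genes). Etv6, an ETS repressor required by adult stem cells in the mouse, was at 4446 and 5571 in the KO, against 5683 and 6960.1 in WT. Elf1, another ETS factor, was at 3791 and 3483 in the KO and at 4176 and 2701 in WT. Among 42 genes of the partner, Id, paralog and target lists, the library profile closest to the mean of the heptad was that of Elf2, an ETS factor, with a root mean square distance of 0.0822 on the centred log2 scale over 4 libraries. Selp, which encodes P-selectin, and Hhex, a homeobox gene, followed at 0.0954 and 0.106. Within the heptad Tal1 was nearest to the shared mean (0.0903) and Erg farthest (0.36). Each member is part of that mean and the listed genes are not, so the 2 kinds of distance are unlike. The mean ran only from -0.21 to 0.15, so genes with small differences lie near it, and shared regulation was not tested.

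Genes described elsewhere as bound by heptad factors, some of which also stand among the partners and paralogs, lay on both sides of 0. Of 23, 20 had values, with 11 above 0 and 9 below and a median log2 fold change of 0.03, equal to that of all genes at this precision. Leaving out one library moved that median between -0.11 and 0.06. The stem cell factor receptor Kit was at 20868 and 19845 in the KO, against 22329 and 17785 in WT, and the sign of its log2 fold change (0.03) turned with the scaling by the total or the upper quartile. KO values lay below WT values without overlap for 7 targets (19.4% of all genes) and above for 3 (24.7%). Myb, a regulator of progenitor growth, was at 4235 and 3878 in the KO and at 5907 and 5197 in WT (log2 fold change -0.45; limma, Benjamini-Hochberg adjusted p = 0.548). Zfp36l2, an RNA-binding protein that promotes mRNA decay, was at 1863 and 2621 in the KO and at 3341 and 3642 in WT (log2 fold change -0.66; limma, Benjamini-Hochberg adjusted p = 0.548).

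**Figure D5:**
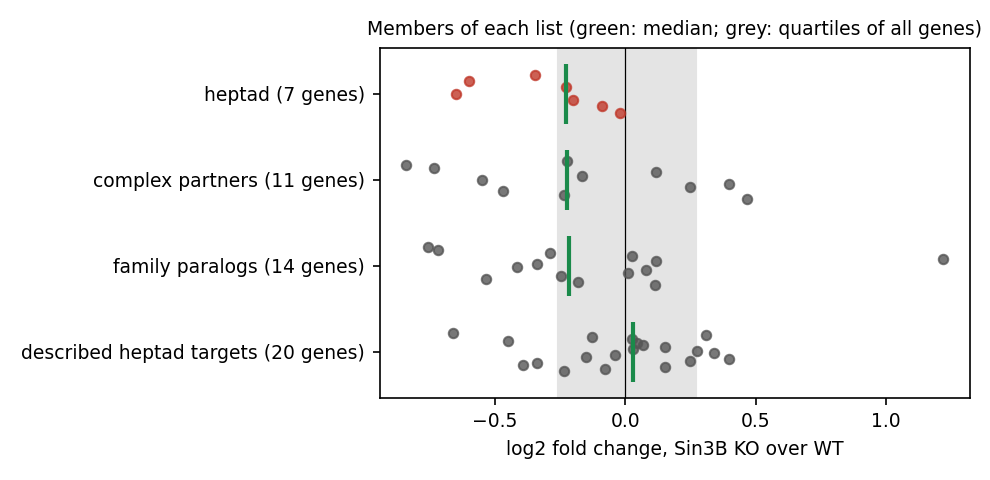
Log2 fold change (Sin3B KO over WT) of the genes of 4 lists, 1 point per gene, with list medians in green and the quartiles of all genes in grey. The heptad points all lie below 0, while partners, paralogs and targets lie on both sides, with Gata1 at 1.22 at the far right.

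Other cell types that express heptad genes were checked through their markers. Of 10 megakaryocyte markers 8 had values, with sums of 15336 and 18397 in the KO and 19012 and 14934 in WT. Of 8 endothelial markers 5 had values, with sums of 8074 and 10491 in the KO and 9346 and 10712 in WT, and Cdh5 and Kdr were not analysed here. Mast cell and basophil markers had values for 3 of 8, with sums of 3750.3 and 2254 in the KO and 3293 and 1137 in WT. Gata1 is among the 3, at 3144 and 1842 in the KO and 1004 and 1063 in WT. Prss34 was at 328 and 272 in the KO and at 1979 and 9.89 in WT. That sum therefore mostly follows Gata1 and, in WT 1, Prss34, and is not a measure of mast cells alone. Myeloid markers (10 of 10) summed to 51197 and 23192 in the KO and 70724 and 14305 in WT, and B lineage markers (7 of 10) to 5041 and 2120 in the KO and 3959 and 1563 in WT. In each of these lists the sums of the genotypes overlapped. Within each number, B lineage and mast sums were higher in the KO, endothelial sums were lower, and megakaryocyte and myeloid sums went both ways. Number 1 minus number 2, averaged over genotypes, had a median log2 difference of 2.25 for myeloid and 2.19 for B lineage markers. It was 1.62 for mast, 1.36 for erythroid, -0.05 for megakaryocyte and -0.12 for endothelial markers, and -0.16 for the heptad. The part of these lists in the values of the heptad was not tested.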

How the data were processed

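Gene expression was measured by RNA-seq in 2 Sin3B KO and 2 WT libraries. Per the submitters' processing notes, Bowtie, DESeq and the mouse build mm9 were used; their versions, the counter and its gene models are not stated there. The library columns that the authors deposited hold a signal, the read count of a gene divided by a size factor per library: 100% of values were whole multiples of 1 step per library, with a tolerance of 0.01 steps. Per the file headers, the authors also deposited their own comparison of the genotypes (log2 fold changes, standard errors, a score, and p-values before and after adjustment). Of 9796 rows, 552 (5.63%) had no library values and were left out. The lowest mean of a listed gene was 120.2.

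limma 3.58.1 in R 4.3.3 was fitted with a trended prior to log2(value + 1) of all 9244 genes, with no block and no filter, two-sided, with Benjamini-Hochberg adjustment and a threshold of 0.05. Fold changes are on that scale. The prior supplied 6.62 degrees of freedom beside 2 from the samples. The distance from estimate to bound of a 95% interval had a median of 0.60. No count model was run. The fit was also run on simulated counts, with the same relative spread beyond counting error for every gene and no effect of the library number. That run therefore does not measure how many changes the fit finds in these data. Exon lengths came from GENCODE M21 (GRCm38) by Ensembl identifier. The only coordinates given are those of the RefSeq promoters on GRCm38.p6, a build that differs from the mm9 of the reads. No member shared more than 0.881% of its exon bases with another gene. The 7 members and all gene lists were chosen with earlier results of these data known. Named genes were the 7 members, Sin3b, the 2 most abundant and the 2 with the smallest p of each list that is not a marker list, and the 3 nearest profiles; a gene that the rule takes is not reported here. Markers of stem, megakaryocyte, endothelial, mast, erythroid, myeloid and B cells are given as sums and examples. The alternatives were other scalings, pseudocounts, a filter, a fit with a replicate block, and leaving out single libraries.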

Additional observations from a re-analysis of the deposited data

How the results depend on the processing

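All 7 factors stayed below 0 with scaling by the total, a trimmed mean or the upper quartile of the listed genes, with pseudocounts of 0.1 and 5, and for genes whose mean reached 500, and 0 of them passed under any alternative (limma, lowest Benjamini-Hochberg adjusted p 0.121, for Lmo2). Trimmed mean scaling without a count package and ratios of same-numbered libraries were chosen after seeing the data. Upper quartile scaling moved the median of all genes from 0.03 to -0.08 and that of the heptad to -0.34; relative to all genes the heptad stood at -0.26 in both. It also gave -0.0002 for Elf1 and -0.083 for Kit, and scaling by the total gave -0.055 for Kit. With each library left out in turn, where the lone library of a genotype is assumed to vary like the others, 0 to 1 genes passed, and the heptad median ran between -0.40 and -0.26. The log2 fold change then ran between -0.49 and 0.45 for Erg, -0.26 and 0.086 for Fli1, -0.89 and -0.41 for Lmo2, -0.77 and -0.43 for Runx1, -0.47 and -0.23 for Tal1, -0.43 and -0.02 for Lyl1, -0.40 and -0.00 for Gata2, -0.32 and 0.87 for Id2, -0.20 and 0.43 for Elf1, and -0.13 and 0.19 for Kit; the cause was not tested. By the longest transcript 2 of 7 factors kept their place in the order of levels, and in WT 2 alone 4 did.

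A fit with the replicate block gave 27 genes past the threshold, Sin3b and Gata1 among them and none of the heptad. What the number marks is not stated. The numbers 1 and 2 are those of the sample titles, and the headers of the deposited columns number the second library of each genotype differently. Over genes, the difference between the libraries numbered 1 and 2 correlated between genotypes (r = 0.465 across genes, which are not independent replicates). Within numbers 1 and 2 the log2 difference (KO minus WT) was -0.61 and -0.68 for Lmo2, -0.54 and -0.66 for Runx1, and -0.26 and -0.43 for Tal1. For these genes the shared sign follows from groups that did not overlap, whatever the pairing. The differences were -0.02 and -0.39 for Gata2, -0.12 and -0.33 for Lyl1, -0.43 and 0.25 for Fli1, and -0.56 and 0.52 for Erg. The planned quasi-likelihood and negative binomial count models were not run. The values were whole multiples of a step per library, but few low values are listed, so a step was not established as 1 read.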
